A study of Mus musculus with 27 samples.

Results

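Disulfiram (DSF), an aldehyde dehydrogenase inhibitor given against alcohol dependence, was added to stimulated mouse B cells in 2 separate RNA-seq experiments, and the change with DSF in experiment 2 is described here beside that in experiment 1. The 4 conditions of experiment 2 below carry the comparison: LPS with vehicle, LPS with DSF, IL-4+anti-CD40 with vehicle and IL-4+anti-CD40 with DSF, which are 4 of the 27 libraries of the series. Of the 54532 genes in the count tables, 9349 had a mean of at least 100 counts over these 4 libraries, and 9338 of them were tested in both experiments under both stimuli, 8722 of which are protein-coding. Genes were then sorted by whether the change in experiment 2 was larger than, smaller than or opposite to that in experiment 1, or was seen in experiment 2 only.

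All libraries came from splenic B cells of wild-type C57BL6 mice, purified by negative selection and cultured for 3 h, with DMSO as the vehicle and DSF at 1 μM. Experiment 1 had 20 libraries in 5 groups of 4 (unstimulated, and each stimulus with vehicle or DSF), and experiment 2 had 7 libraries with 1 per group, which added each stimulus with ibrutinib, an inhibitor of Bruton's tyrosine kinase. The study calls its RNA-seq samples biologically independent, but neither the labels nor the methods say how many mice a library held or whether the experiment 1 replicates came from separate mice. Their p-values therefore measure the spread between those libraries, and separate mice and separate cultures cannot be told apart.

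LPS activates B cells through Toll-like receptor 4, which signals to NF-κB and to interferon production. IL-4 acts through STAT6 and CD40 through the TRAF adaptors to NF-κB, so this pair of stimuli stands for T cell help. Activated B cells grow before they divide, raising Myc, ribosome assembly and nucleotide synthesis. Thiol-reactive compounds such as DSF are known to touch several stress pathways: HSF1 drives the heat shock genes when proteins misfold, and NRF2, released from the cysteine sensor KEAP1, drives glutathione, thioredoxin and NADPH genes.

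With 1 library per group, the experiment 2 contrasts have no replicate check and no p-value. Their size is given as the log2 ratio of CPM (read counts divided by the library size, which was scaled by TMM within each experiment), with a prior count of 2, and a gene counts as called when the ratio was 2-fold or more. Experiment 1 was tested with edgeR's quasi-likelihood test on 4 against 4 libraries, with an adjusted p under 0.05 as the call. The difference between experiments was tested in edgeR as the interaction of experiment and DSF on the joined counts of 10 libraries per stimulus. It was called when its adjusted p was under 0.05 and its size was at least 1 on the log2 scale. The 6 residual degrees of freedom of that test all come from experiment 1, so the lone libraries of experiment 2 were assumed to vary like its replicates, and variation between whole experiments is not part of the error. Where CPM of the 2 experiments stand side by side, they were scaled separately.

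Library totals lay between 16049295 and 24619776 counts in experiment 2 and between 17804851 and 23632992 in experiment 1. The 10 B cell markers were all detected in every library and summed to 17900 to 19400 CPM in the 4 libraries, while T cell markers summed to 29.1 to 39.7 CPM. Myeloid markers summed to 408 and 413 CPM with vehicle and to 260 and 250 CPM with DSF. At most 1 of the 12 myeloid markers was at 0. Erythroid markers summed to 30.6 and 27.9 CPM with vehicle and to 71.2 and 61.1 CPM with DSF, with at most 2 of 8 markers at 0. In stimulated libraries of experiment 1 the erythroid sum was 1.76 to 4.18 CPM. The myeloid sum there was 838 to 890 CPM with LPS, 557 to 593 with LPS and DSF, 383 to 428 with IL-4+anti-CD40 and 429 to 509 with DSF added. Neutrophil markers summed to 25.2 to 42.6 CPM there and to 0.95 to 4.76 CPM in the 4 libraries of experiment 2. The part of any of these in the results was not tested. Mitochondrial transcripts took 1.63% and 1.39% of counts with vehicle and 2.53% and 2.49% with DSF, and the 10 most abundant genes took 4.91% and 5.34% with vehicle and 9.22% and 8.34% with DSF.

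Within experiment 1, vehicle replicates 3 and 4 of IL-4+anti-CD40 stood apart from replicates 1 and 2 in genes that DSF moved. The inducible heat shock gene Hspa1a was at 9.89 and 15.2 CPM in replicates 1 and 2 and at 107 and 419 CPM in replicates 3 and 4. The heme oxygenase gene Hmox1 was at 10.1 and 18.2 CPM against 131 and 257 CPM, and the interferon-stimulated gene Ifit3 at 2.04 and 2.9 CPM against 9.98 and 18.3 CPM. Unstimulated libraries of experiment 1 also split by replicate number. There interferon-stimulated genes summed to 390, 409, 829 and 814 CPM, and NRF2 targets to 3950, 3890, 2320 and 2300 CPM. NRF2 targets summed to 3340, 3530, 5530 and 6910 CPM with IL-4+anti-CD40 and vehicle, and to 4060 to 4380 CPM with LPS and vehicle. The IL-4+anti-CD40 fits were therefore repeated without vehicle replicates 3 and 4 and without vehicle replicates 1 and 2, an alternative chosen after the data were seen. All DSF libraries were kept in both. Of 156 named genes, 29 changed class without replicates 3 and 4, with 10 differences no longer called and 10 newly called, and 30 changed class without replicates 1 and 2, with 7 no longer called and 19 newly called. For some genes below, the values without these libraries stand beside the printed difference or call. Other IL-4+anti-CD40 values also moved and are not all printed.

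The change with DSF was wider in experiment 2 than in experiment 1 and mostly ran the same way. With LPS, 1224 genes (13.1% of those tested) were 2-fold or more higher with DSF in experiment 2 and 2306 (24.7%) were 2-fold or more lower. In experiment 1 under LPS, 824 genes were 2-fold or more higher and 565 were 2-fold or more lower. By edgeR at an adjusted p under 0.05 with no minimum size, an unlike measure, DSF raised 3609 genes (38.6%) and lowered 4045 (43.3%) there. With IL-4+anti-CD40, 1400 genes (15%) were 2-fold or more higher and 2286 (24.5%) lower in experiment 2, beside 747 and 372 in experiment 1. By adjusted p, 3219 (34.5%) were raised and 3615 (38.7%) lowered in experiment 1. With library totals in place of TMM the LPS split in experiment 1 was 2468 raised and 5270 lowered, since that scaling moved the median of all genes by -0.208. Of the genes called in experiment 1, 6845 of 7654 (89.4%) had the same sign in experiment 2 under LPS and 6405 of 6834 (93.7%) under IL-4+anti-CD40. Fewer cells of a type and less RNA per cell cannot be told apart in such bulk samples.

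The spread of the log2 change over genes gives the same picture in single pairs of libraries. Its SD was 1.25 in experiment 2 under LPS, and it was 0.769 to 0.837 in the 16 pairs of 1 DSF and 1 vehicle library of experiment 1. Under IL-4+anti-CD40 the SD was 1.29, against 0.550 to 0.882 over 16 pairs. With both experiments scaled together, which moves the ratios of experiment 2 a little from those above, the number of genes 2-fold or more lower was 2228 under LPS, outside the 608 to 775 of the single pairs of experiment 1, and 2204 under IL-4+anti-CD40, outside their 215 to 657. Across genes, which are not independent replicates and share the libraries, the change in experiment 2 followed that in experiment 1 with a Pearson correlation of 0.87 and a slope of 1.35 under LPS, and 0.887 and 1.64 under IL-4+anti-CD40 (n = 9338 genes). Without vehicle replicates 3 and 4, the slope under IL-4+anti-CD40 was 1.29, and without replicates 1 and 2 it was 1.91. The median gene was at -0.29 in experiment 2 and -0.04 in experiment 1 under LPS, and at -0.24 and -0.04 under IL-4+anti-CD40, and list medians below are to be read beside these.

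**Figure D1:**
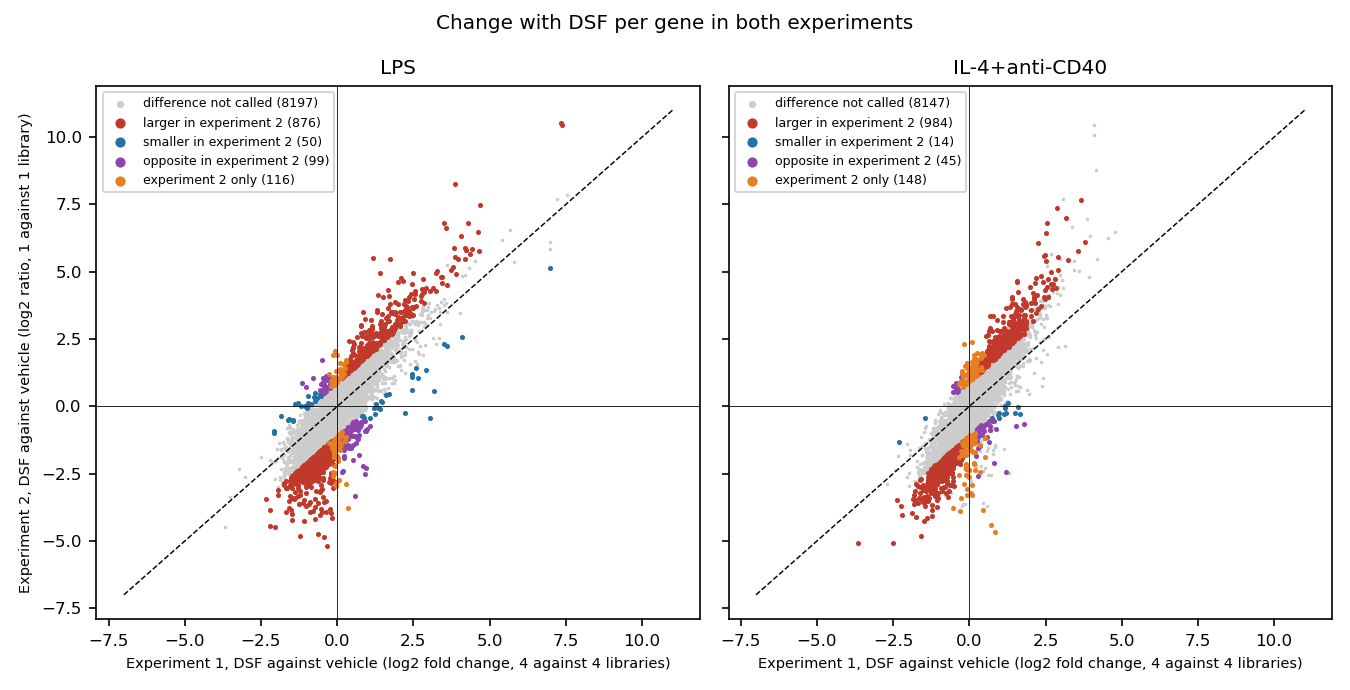
Change with DSF per gene (n = 9338), with experiment 1 on the horizontal axis (log2 fold change, 4 against 4 libraries) and experiment 2 on the vertical axis (log2 ratio, 1 against 1 library), for LPS and IL-4+anti-CD40. Colours mark the classes of genes whose difference between experiments was called, the dashed line marks equal change, and most coloured genes lie on the far side of it from 0 in the same direction (876 under LPS and 984 under IL-4+anti-CD40).

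The difference between experiments was called for 1141 genes under LPS, 384 higher in experiment 2 (4.11% of those tested) and 757 lower (8.11%). It was called for 1191 under IL-4+anti-CD40, 443 higher (4.74%) and 748 lower (8.01%). An adjusted p under 0.05 alone, with no minimum size, was reached by 4892 and 3430 genes in edgeR. Larger falls were the most frequent class, with 578 genes (6.19%) under LPS and 619 (6.63%) under IL-4+anti-CD40. Larger rises came next with 298 (3.19%) and 365 (3.91%). The minimum mean of 100 counts bears on both classes: 124 and 118 of the larger rises had a vehicle mean under 100 and passed through the DSF libraries only, and 155 and 183 of the larger falls passed through the vehicle libraries only. Such genes had to differ between the arms of experiment 2, so their counts are a description. Among genes printed below, Mmp13, Ifi204, Spic, Hsd17b7, Dctd, Polr3g, Engase and Zcchc18 passed through the vehicle libraries only. Bag3, Mt1, Nr4a2 and Zbtb26 passed through the DSF libraries only. Of all genes tested, 338 passed through the DSF libraries only and 626 through the vehicle libraries only.

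The remaining classes were small. A rise that was smaller in experiment 2 was seen in 26 genes (0.278%) under LPS and 12 (0.129%) under IL-4+anti-CD40, and a smaller fall in 24 (0.257%) and 2 (0.0214%). An opposite change that was lower in experiment 2 was seen in 74 genes (0.792%) and 34 (0.364%), and one that was higher in 25 (0.268%) and 11 (0.118%). Lower in experiment 2 only were 79 genes (0.846%) and 83 (0.889%), and higher in experiment 2 only were 37 (0.396%) and 65 (0.696%). Without vehicle replicates 3 and 4 of IL-4+anti-CD40, 51 genes in place of 14 had a smaller change and 101 in place of 45 an opposite change. Without replicates 1 and 2, larger rises were 580, smaller changes 7 and changes in experiment 2 only 307.

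The stimuli share no library, although both DSF libraries come from the same experiment. The minimum mean count was taken over both stimuli together. Under LPS, 124 of the 298 larger rises passed it through the DSF libraries only. Of the 578 larger falls 155, and of the 74 opposite genes that were lower 16, passed it through the vehicle libraries only. For such genes, agreement between the stimuli is partly set by that minimum, so the overlaps and signs that follow are a description. Of the 298 larger rises under LPS, 171 (57.4%) were larger rises under IL-4+anti-CD40 too, which is 46.8% of that list. Of the 578 larger falls, 342 (59.2%) were shared, which is 55.3% of the other list. The smaller and opposite classes shared less: 6 of the 26 smaller rises, 12 of the 74 opposite genes that were lower in experiment 2, and 3 of the 25 that were higher. The sign of the difference was the same under IL-4+anti-CD40 for 297 of the 298 larger rises, 574 of the 578 larger falls and 72 of the 74 opposite genes that were lower. Over all genes it was the same for 3206 of 3901 with a positive difference under LPS (82.2%) and for 4599 of 5437 with a negative one (84.6%).

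The DSF libraries, rather than the vehicle libraries, held most of the gap between the experiments in the larger falls. With both experiments scaled together, the median gap of experiment 2 minus experiment 1 over the 578 larger falls under LPS was -0.03 (log2) between the vehicle libraries and -1.31 between the DSF libraries. The gap was the greater between the DSF libraries in 561 of the 578 genes (97.1%), beside 70.3% of all genes. For the 298 larger rises the vehicle gap was -0.30 and the DSF gap 1.13, so these genes started lower and ended higher in experiment 2. Under IL-4+anti-CD40 the medians were 0.06 and -1.23 over 619 larger falls and -0.30 and 1.04 over 365 larger rises.

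Smaller rises showed another pattern under LPS. Over the 26 smaller rises under LPS, the vehicle gap was 0.79 and the DSF gap -0.55, so these genes were already higher without DSF in experiment 2 and stayed lower with it. The gap was the greater between the DSF libraries in 12 of these 26 genes (46.2%). Under IL-4+anti-CD40 the vehicle gap over 12 smaller rises was 0.25 and the DSF gap -1.04. It was the greater between the DSF libraries in 8 of those 12 genes (66.7%), beside 73.2% of all genes. The 74 opposite genes that were lower in experiment 2 under LPS had a vehicle gap of 0.01 and a DSF gap of -1.39. For the 34 such genes under IL-4+anti-CD40 the gaps were 0.48 and -0.86.

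**Figure D2:**
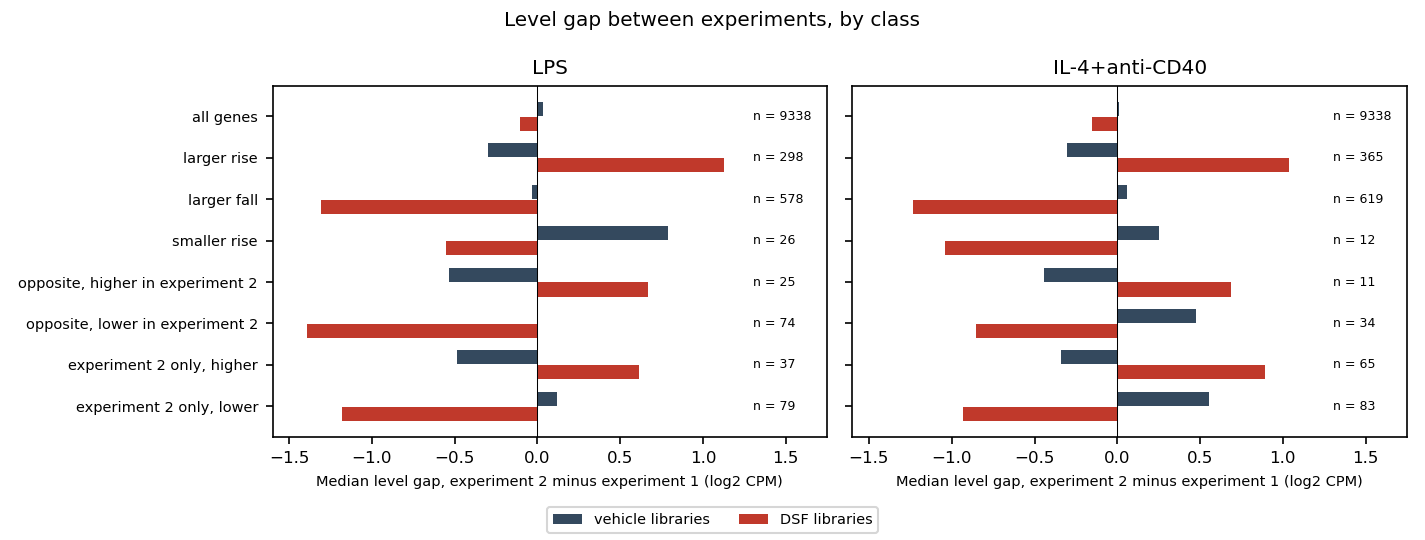
Median gap in log2 CPM between experiments (experiment 2 minus experiment 1, both experiments scaled together) for each class of genes, with dark bars for vehicle libraries and red bars for DSF libraries. In the larger falls the vehicle bars lie near 0 (-0.03 and 0.06) while the DSF bars reach -1.31 under LPS and -1.23 under IL-4+anti-CD40.

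The DSF libraries also stood apart from the 5 other libraries of experiment 2, which were unstimulated, stimulated or stimulated with ibrutinib. Both DSF libraries lay above all 5 in 2315 genes (24.8%) and below all 5 in 3933 (42.1%). Of the 855 genes with a larger fall under either stimulus, 796 (93.1%) were below all 5, and of the 492 with a larger rise 439 (89.2%) were above all 5. These shares are not independent of the classes, since the vehicle libraries are among the 5.

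Among the genes named for the larger falls were a cytokine receptor and survival genes. Il2ra (chr2:11642807-11693193, mm10) encodes the alpha chain of the IL-2 receptor, which activated lymphocytes display. In experiment 2 it was at 410 CPM with LPS and 14.5 CPM with LPS and DSF, and at 337 and 11.8 CPM with IL-4+anti-CD40. In experiment 1 under LPS it was at 680, 695, 635 and 632 CPM with vehicle and at 264, 285, 255 and 241 CPM with DSF. The groups did not overlap in either experiment, and the DSF libraries of experiment 2 were far below all 8 DSF libraries of experiment 1. The log2 change under LPS was -4.81 in experiment 2 and -1.22 ± 0.05 (SE, n = 4 against 4) in experiment 1, a difference of -3.49 ± 0.13 (adjusted p = 1.9e-17, edgeR). Under IL-4+anti-CD40 the difference was -3.17 ± 0.28 (adjusted p = 7.87e-05, edgeR).

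Survival genes of the BCL2 family followed. Bcl2l1, which encodes the anti-apoptotic protein Bcl-xL, was at 289 CPM with LPS and 26.8 CPM with DSF, and at 184 and 12.7 CPM with IL-4+anti-CD40. Its log2 change was -3.43 and -3.84 in experiment 2 and -0.74 ± 0.05 and -1.22 ± 0.12 in experiment 1, and the difference was called under both stimuli (-2.59 and -2.55). The vehicle libraries of both experiments lay at 181 to 289 CPM, so the gap was between the DSF libraries. Bcl2a1b, of the A1 group of the same family, was at 99.2 and 7.87 CPM and at 81.8 and 6.36 CPM with vehicle and DSF, with differences of -2.62 ± 0.27 and -2.37 ± 0.38 (adjusted p = 7.84e-09 and 0.00142, edgeR). Its close paralog Bcl2a1d gave differences of -2.27 and -2.69, and reads of the A1 copies may be split between them.

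Other named members of this class came from several pathways. Slfn2, a Schlafen gene needed for T cell quiescence, was at 571 and 62.9 CPM under LPS and at 517 and 58.2 CPM under IL-4+anti-CD40, while the experiment 1 DSF libraries stayed at 200 to 710 CPM. Its difference was -2.51 ± 0.10 and -2.38 ± 0.23. Rcn1, a calcium-binding protein of the endoplasmic reticulum, was at 34.7 and 2.29 CPM and at 41 and 2.28 CPM. Spryd4 was at 28.8 and 1.79 CPM and at 24.2 and 1.74 CPM, with differences of -3.01 and -2.64, but it overlaps Gls2 on the other strand and its value is uncertain because the strand setting of the counting is not stated. With 26 to 41 counts in the DSF libraries, Rcn1 and Spryd4 passed the minimum mean only through the vehicle libraries, and their values are a description.

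The 6 genes named for the larger rises were at 1.39 CPM or less with vehicle in experiment 2, where each held 1 to 25 counts per library. All 6 passed the minimum mean only through the DSF libraries, so their values are given with no p. Itgam (chr7:128062640-128118491) encodes CD11b, an integrin chain best known from myeloid cells. It was at 0.727 CPM with LPS and 36.3 CPM with DSF, and at 0.333 and 28.8 CPM with IL-4+anti-CD40. In experiment 1 it was at 6.04, 7.15, 7.36 and 6.99 CPM with LPS and at 24, 17.6, 22.3 and 20.2 CPM with DSF. The log2 change was thus 5.46 against 1.72 ± 0.11 under LPS, a difference of 4.01 ± 0.35, and the difference under IL-4+anti-CD40 was 4.25 ± 0.56. The vehicle gap for Itgam was -3.01 and the DSF gap 0.82 under LPS, so most of the difference lay in the vehicle libraries. Itgam is itself 1 of the 12 myeloid markers, whose sum was lower with DSF in experiment 2, and it overlaps the transcript Gm49368 on the same strand.

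Other named larger rises were a channel, a membrane protein and a transcription factor. P2rx7, an ATP-gated ion channel, was at 1.06 CPM with LPS and 130 CPM with DSF, and at 0.388 and 99.8 CPM with IL-4+anti-CD40, with differences of 2.73 ± 0.46 and 4.40 ± 0.85. Emp1, a membrane protein, was at 1.06 and 130 CPM and at 1.39 and 129 CPM, with differences of 3.53 ± 0.28 and 4.11 ± 0.61. Experiment 1 held Emp1 at 41.9 to 53.4 CPM in its 8 DSF libraries and at 3.99 to 13.2 CPM in its vehicle libraries. For the homeobox gene Cux2 the LPS vehicle library held 3 counts and the DSF library 381, a ratio of 127 (95% exact interval 43.1 to 617, counting error only). Sec16b, a gene of endoplasmic reticulum exit sites, held 3 and 423 counts under LPS and 1 and 297 under IL-4+anti-CD40, with ratios of 141 (47.8 to 685) and 359 (63.9 to 14200). Gm29666 was at 0.224 and 14.7 CPM and at 0.998 and 11.1 CPM. Without vehicle replicates 3 and 4 of experiment 1, the IL-4+anti-CD40 differences of Cux2 and Sec16b were no longer called: Cux2 went from 3.32 ± 1.06 to 1.79 ± 0.85, and Sec16b from 5.24 ± 1.34 to 3.54 ± 1.28.

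**Figure D3:**
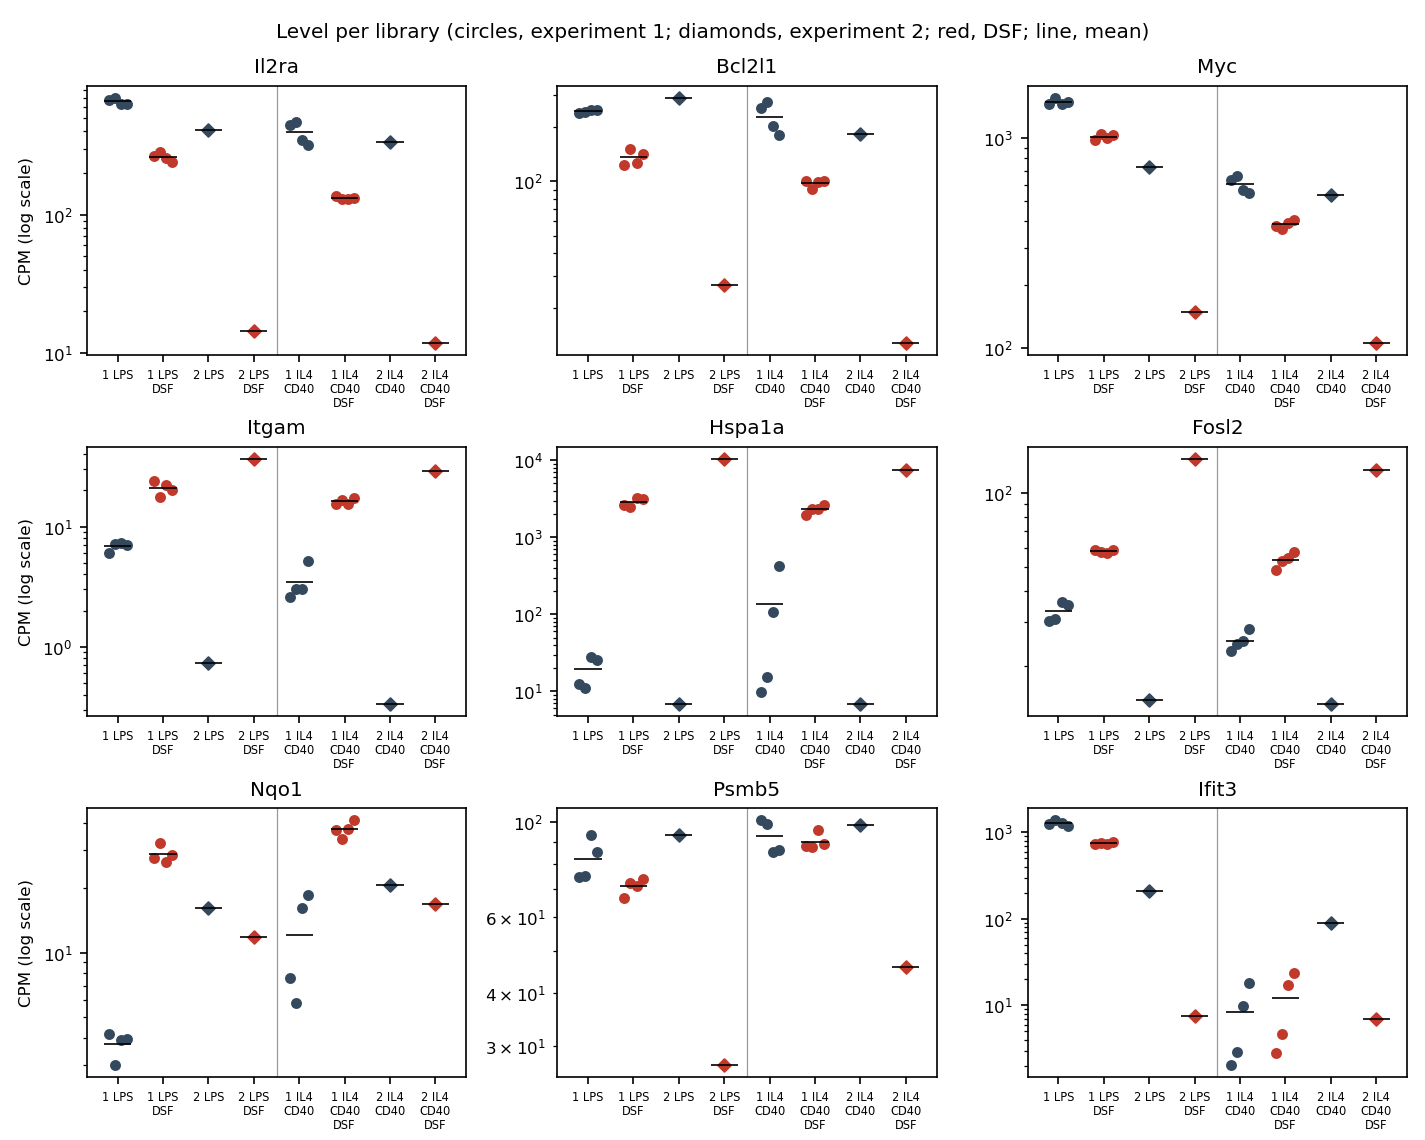
CPM per library on a log axis for 9 genes, with circles for experiment 1 (4 libraries per group), diamonds for experiment 2 (1 library per group), red for DSF, dark blue for vehicle and a line at each mean. Il2ra, Bcl2l1 and Myc reach lower levels with DSF in experiment 2 than in any DSF library of experiment 1, Itgam, Hspa1a and Fosl2 reach higher ones, and Nqo1 is higher with DSF in experiment 1 only.

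Gene programmes were followed with 29 lists and 7 marker lists. Because members were not drawn independently of earlier results of these data, lists are described by counts and medians with no test over the list. Scaling by library totals in place of TMM moved the median of all genes by -0.2 and -0.14 in experiment 2 and by -0.208 and -0.149 in experiment 1. It turned the sign of list medians close to 0: metal response (0.05 to -0.16) in experiment 1 and G1 and replication (0.07 to -0.13) in experiment 2 under LPS, and unfolded protein response (0.06 to -0.09) and glycolysis (0.00 to -0.15) in experiment 1 under IL-4+anti-CD40. The median difference between experiments was widest in interferon-stimulated genes under both stimuli (-1.74 and -2.29), and next under LPS in NRF2 targets (-1.01), immediate early genes (0.95) and ribosome assembly (-0.90). Without vehicle replicates 1 and 2, the experiment 1 medians under IL-4+anti-CD40 were nearer 0 for one-carbon and serine enzymes (-0.14), RNA polymerase subunits (-0.21), mitochondrial ribosomal proteins (-0.27) and the BCL2 family (0.16), and that of glycolysis was -0.26. Counts of members 2-fold or more higher or lower are to be read beside 13.1% and 15% higher and 24.7% and 24.5% lower over all genes.

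**Figure D4:**
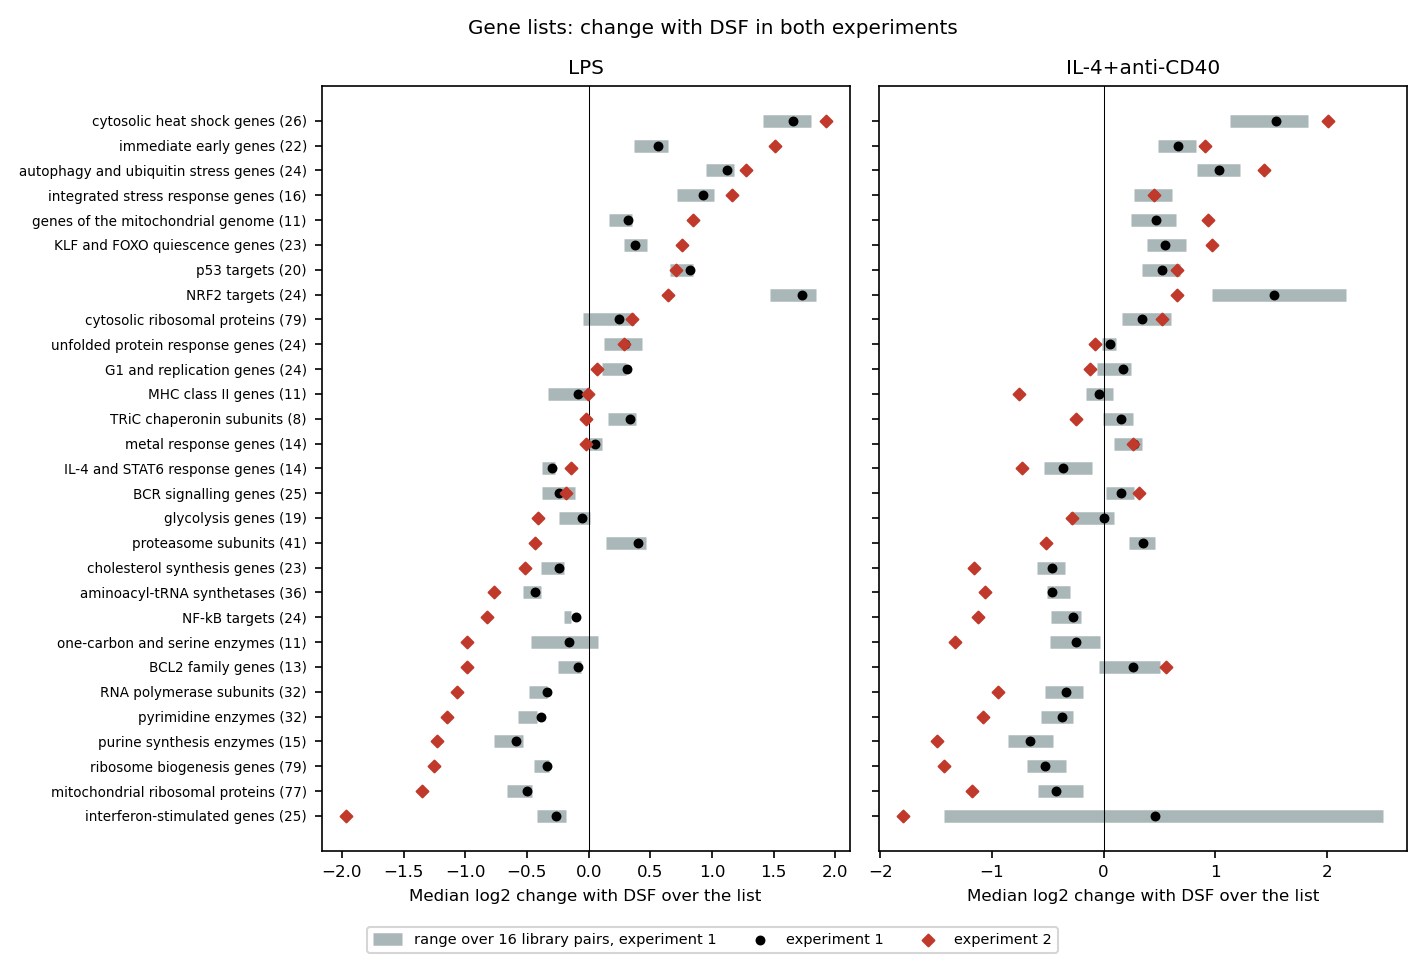
Median log2 change with DSF over each gene list (number of members with a mean count of at least 100 in brackets) in experiment 2 (red diamonds) and experiment 1 (black circles), with a grey bar over the 16 library pairs of experiment 1. The proteasome subunits lie right of 0 in experiment 1 (0.40 and 0.35) and left of 0 in experiment 2 (-0.43 and -0.51).

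Ribosome assembly genes were lower with DSF in both experiments, and by more in experiment 2. The median over 79 genes was -1.25 under LPS and -1.43 under IL-4+anti-CD40, against -0.33 and -0.53 in experiment 1. In experiment 2, 52 and 56 of the 79 were 2-fold or more lower and none was 2-fold or more higher, and the difference was called lower for 34 and 27. Under IL-4+anti-CD40 it was called lower for 20 without vehicle replicates 3 and 4 (experiment 1 median -0.63). Without replicates 1 and 2 it was called lower for 35 (experiment 1 median -0.39). Polr1b, a core subunit of RNA polymerase I, was at 241 and 30 CPM under LPS and at 263 and 37 CPM under IL-4+anti-CD40, with differences of -2.02 ± 0.11 and -1.61 ± 0.18 (adjusted p = 4.9e-14 and 0.000258, edgeR). Rrp1b, an rRNA processing factor, was at 168 and 25 CPM and at 211 and 31.7 CPM, and Dkc1, the pseudouridine synthase dyskerin, at 247 and 47.2 CPM and at 292 and 54.6 CPM. The summed level of the list in the DSF libraries, 9090 and 9120 CPM, was close to the 8060 CPM of the unstimulated library of experiment 2, while vehicle libraries stood at 18600 and 21300 CPM. In experiment 1 the DSF libraries stayed at 15600 to 17500 CPM, above the 6220 to 9170 CPM of its unstimulated libraries.

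Other parts of the protein synthesis machinery split. RNA polymerase subunits had medians of -1.07 and -0.95 in experiment 2 and -0.34 and -0.34 in experiment 1 over 32 genes, with Polr3g of RNA polymerase III (-2.79 and -2.99 in experiment 2) among the lowest. Mitochondrial ribosomal proteins had medians of -1.35 and -1.18, against -0.50 and -0.43, and 50 and 51 of 77 were 2-fold or more lower. Mrps2 was at 47.3 and 7.31 CPM under LPS and at 58.2 and 10.2 CPM under IL-4+anti-CD40. Aminoacyl-tRNA synthetases, which charge tRNAs, had medians of -0.77 and -1.07, against -0.43 and -0.46, with Kars at 225 and 55.2 CPM and at 280 and 62.9 CPM. Cytosolic ribosomal proteins did not go with them: their medians were 0.35 and 0.52 in experiment 2 and 0.25 and 0.35 in experiment 1, and in both DSF libraries 74 of 79 lay above the 5 other libraries. Genes of the mitochondrial genome were also higher, with medians of 0.84 and 0.93 against 0.32 and 0.47 over 11 genes. mt-Co1, a subunit of cytochrome c oxidase, was at 5710 and 11200 CPM under LPS and at 4760 and 10100 CPM under IL-4+anti-CD40.

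Nucleotide synthesis genes were also lower by more in experiment 2. Purine synthesis enzymes had medians of -1.23 and -1.49 over 15 genes, against -0.59 and -0.66 in experiment 1, and 9 and 10 of them were 2-fold or more lower. Gart, which carries out several steps of the pathway, was at 174 and 22.8 CPM and at 218 and 26 CPM, with differences of -1.29 ± 0.11 and -1.44 ± 0.26. Pyrimidine enzymes had medians of -1.15 and -1.08 over 32 genes, against -0.39 and -0.37. Cad, whose product starts pyrimidine synthesis, was at 204 and 27.5 CPM and at 295 and 30.3 CPM, and Dctd, a deoxycytidylate deaminase, at 11.9 and 0.446 CPM and at 15 and 1.07 CPM. The Cad difference was -0.97 ± 0.12 under LPS, below the size set for a call, and -1.38 ± 0.20 under IL-4+anti-CD40. One-carbon and serine enzymes had medians of -0.98 and -1.33 against -0.16 and -0.24, and within them Mthfd1 was lower (122 and 18.3 CPM under LPS).

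Cholesterol synthesis and glycolysis differed by stimulus and by gene. Cholesterol synthesis genes had a median of -0.51 under LPS and -1.16 under IL-4+anti-CD40 in experiment 2, against -0.24 and -0.47, with 7 and 14 of 23 2-fold or more lower, beside 24.7% and 24.5% of all genes. The difference was called lower for 2 and 5 of the 23. Hsd17b7, an enzyme of the late pathway, was at 32.9 and 4.69 CPM under LPS and at 69.8 and 3.89 CPM under IL-4+anti-CD40, with differences of -1.16 ± 0.21 and -2.69 ± 0.23. Whether the 2 stimuli differ in this was not tested. Among glycolysis genes, Ldha was lower (613 and 176 CPM; 785 and 167 CPM), while the glucose transporter Slc2a1 was higher (46.4 and 205 CPM; 44 and 172 CPM), and both differences between experiments were called under both stimuli.

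The NF-κB list had lower medians in experiment 2 than the same contrast gave in experiment 1. NF-κB targets had medians of -0.82 and -1.12 over 24 genes, against -0.10 and -0.28, and the difference was called lower for 7 and 8 and higher for none. Other genes of B cell activation came from lists whose members did not share 1 direction. Myc, of the immediate early list, whose called differences were mostly toward higher values, was at 728 and 148 CPM under LPS and at 535 and 105 CPM under IL-4+anti-CD40. In experiment 1 it stood at 1460, 1550, 1450 and 1480 CPM with LPS and at 978, 1050, 997 and 1030 CPM with LPS and DSF. The groups were apart in both experiments, and the difference was -1.76 ± 0.09 under LPS and -1.64 ± 0.16 under IL-4+anti-CD40 (adjusted p = 1.86e-14 and 0.000143, edgeR). Ccnd2, a cyclin of the G1 phase, from a list with 0 and 3 differences called higher and 2 and 1 called lower, was at 740 and 156 CPM and at 1810 and 151 CPM, with differences of -1.17 ± 0.09 and -1.80 ± 0.24. The activation marker Cd83, of the IL-4 and STAT6 list, was at 2100 and 562 CPM and at 2310 and 483 CPM, and the AP-1 family factor Batf, of the same list, was at 64.6 and 7.59 CPM and at 30.5 and 7.1 CPM.

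Few differences were called in the BCR signalling and MHC class II lists. BCR signalling genes had medians of -0.19 and 0.31 in experiment 2 and -0.24 and 0.16 in experiment 1, and the difference was called for 1 and 0 of 25, or 1 under IL-4+anti-CD40 without vehicle replicates 1 and 2. The gene called was Cd22, an inhibitory coreceptor, which under LPS was at 146 and 260 CPM in experiment 2 and fell from 152 to 167 CPM to 97 to 103 CPM in experiment 1 (difference 1.47 ± 0.10, adjusted p = 1.97e-12, edgeR). MHC class II genes had medians of -0.01 and -0.76, against -0.09 and -0.04, with no difference called, and without vehicle replicates 3 and 4 with 1 called lower under IL-4+anti-CD40, when the experiment 1 median was 0.02. Under IL-4+anti-CD40, 9 of the 11 lay below every pair of experiment 1, beside 46.2% of all genes. IL-4 and STAT6 response genes had medians of -0.14 and -0.73, against -0.30 and -0.36, and of 14 the difference was called higher for 2 and 1 and lower for 2 and 3. Over all genes 4.11% and 4.74% were called higher and 8.11% and 8.01% lower, smaller shares than in this list. Cish, a suppressor of cytokine signalling, was higher with DSF under LPS (10.7 and 32.8 CPM) and lower under IL-4+anti-CD40 (121 and 37.7 CPM) in experiment 2. In experiment 1 its log2 change was 0.08 ± 0.08 under LPS and -1.06 ± 0.05 under IL-4+anti-CD40.

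Most heat shock genes were higher with DSF in both experiments, and a few were higher by more in experiment 2. DSF raised 21 and 22 of 26 in experiment 1 and lowered 2 under each stimulus. The median was 1.92 and 2.00 in experiment 2, against 1.65 and 1.54, and 17 were 2-fold or more higher under each stimulus. The difference was called higher for 5 under LPS and 2 under IL-4+anti-CD40, or 4 without vehicle replicates 3 and 4 and 10 without replicates 1 and 2. Above all 16 pairs of experiment 1 libraries lay 14 and 13 of the 26 (27.3% and 25.5% of all genes), and below all pairs 6 and 7 (46% and 46.2% of all genes). Hspa1a was at 6.82 CPM with either stimulus and vehicle and at 10300 and 7560 CPM with DSF. In experiment 1 under LPS it was at 12.5, 10.9, 28.3 and 25.9 CPM with vehicle and at 2600, 2460, 3220 and 3180 CPM with DSF, and the difference was 3.32 ± 0.41 (adjusted p = 2.38e-07, edgeR). Its near-identical neighbour Hspa1b gave a difference of 3.17 ± 0.39, and reads may be split between them. Under IL-4+anti-CD40 the Hspa1a difference of 6.11 ± 2.20 was not called (adjusted p = 0.0631, edgeR), with the vehicle libraries of experiment 1 spread over 9.89 to 419 CPM. It was 2.68 ± 0.32 without replicates 3 and 4 and 7.04 ± 0.81 without replicates 1 and 2, and was called both times (adjusted p = 3.61e-05 and 2.57e-05, edgeR). Bag3, a cochaperone, was at 1.9 and 118 CPM and at 2.33 and 106 CPM, and its difference was called under both stimuli (1.87 and 2.37). It passed the minimum mean only through the DSF libraries, so its values and calls are a description.

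The promoter of Hspa1a is shown because it holds a heat shock element, the site bound by HSF1, and because this gene had the highest ratio of the list under LPS. Sequences are from RefSeq on GRCm38.p6, read 5′ to 3′ on the gene's strand, and capitals mark the match to GAANNTTC found on either strand in the 300 bases from 250 before to 50 after the start.
Hspa1a, chr17:34972242-34972271: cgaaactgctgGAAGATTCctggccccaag
This motif was in the windows of 11 of 23 heat shock genes matched to RefSeq (47.8%), and in 2442 of 27025 windows of all genes (9.04%). A match is a description of letters, not of binding. The TRiC chaperonin subunits, which fold actin and tubulin, did not follow the heat shock genes. Their medians were -0.02 and -0.25 in experiment 2 and 0.34 and 0.15 in experiment 1, with Cct6a at 408 and 212 CPM under LPS and at 476 and 230 CPM under IL-4+anti-CD40.

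Immediate early genes also had medians above 0 in both experiments. These were 1.51 and 0.91 over 22 genes, against 0.56 and 0.66, and the difference was called higher for 10 and 5 and lower for 1 under each stimulus. Without vehicle replicates 1 and 2 it was called higher for 9 under IL-4+anti-CD40. Fosl2, of the AP-1 family, was at 14.5 and 137 CPM under LPS and at 14 and 124 CPM under IL-4+anti-CD40, with differences of 2.42 ± 0.14 and 2.14 ± 0.18 (adjusted p = 1.71e-13 and 6.16e-05, edgeR). The orphan receptor Nr4a2 was at 4.97 and 157 CPM and at 3.49 and 121 CPM. Jun, chosen here after its values were seen, went opposite ways under LPS: it was at 125 and 412 CPM in experiment 2 and fell in experiment 1 from 380 to 409 CPM to 247 to 268 CPM, a difference of 2.34 ± 0.10. Under IL-4+anti-CD40 Jun was at 123 and 411 CPM, and it rose in experiment 1 too.

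Further stress lists gave mixed values. Among integrated stress response genes, with medians of 1.17 and 0.45 against 0.93 and 0.45, Atf3 was at 44.6 and 858 CPM and at 44.1 and 702 CPM, and Cebpg at 43 and 291 CPM and at 56.5 and 262 CPM. Both gave called differences under both stimuli (1.51 and 1.61 for Atf3, 1.43 and 1.38 for Cebpg). The unfolded protein response list had medians of 0.28 and -0.08, against 0.30 and 0.06, and within it Dnajb9 was at 49.8 and 638 CPM while Dnajb11 was at 84.9 and 35.2 CPM under LPS. Autophagy and ubiquitin stress genes had medians of 1.28 and 1.43, against 1.12 and 1.03, with the ubiquitin-binding Zfand2a at 25.7 and 585 CPM and at 30.5 and 506 CPM. Metal response genes had medians of -0.03 and 0.26, against 0.05 and 0.27, and the metallothionein gene Mt1, at 3.74 and 145 CPM and at 3.33 and 173 CPM, was not called (differences 1.79 ± 0.92 and 3.12 ± 2.04). Under IL-4+anti-CD40 the Mt1 difference was -0.42 ± 0.48 and not called without vehicle replicates 3 and 4, and 4.05 ± 0.22 and called without replicates 1 and 2. Mt1 passed the minimum mean only through the DSF libraries, so its values and calls are a description.

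Lists of quiescence, growth arrest and survival held genes of both directions. KLF and FOXO quiescence genes had medians of 0.75 and 0.97, against 0.38 and 0.55, with Btg2, an antiproliferative gene, at 178 and 736 CPM and at 94.9 and 742 CPM (differences 1.45 ± 0.10 and 1.45 ± 0.26). The p53 targets had medians of 0.71 and 0.66, against 0.82 and 0.52, and held genes of both directions: Ccng1 was at 96.3 and 17.3 CPM and at 131 and 17.4 CPM, while Plk2 was at 34 and 300 CPM and at 17.6 and 228 CPM. BCL2 family genes had medians of -0.99 and 0.55, against -0.09 and 0.26, with Bcl2l2 higher (5.37 and 12.1 CPM; 6.37 and 16.3 CPM) where Bcl2l1 was lower. G1 and replication genes had medians of 0.07 and -0.12, against 0.31 and 0.18.

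The median of the proteasome list was above 0 in experiment 1 and below 0 in experiment 2. In experiment 1 DSF raised 29 of 41 subunits under LPS and 26 under IL-4+anti-CD40 and lowered 9 and 8, with medians of 0.40 and 0.35. In experiment 2 the medians were -0.43 and -0.51, 29 and 32 of the 41 had a negative ratio, and none was 2-fold or more higher. The median of all genes was below 0 there too (-0.29 and -0.24), so negative ratios were common over all genes. The 10 that were 2-fold or more lower under each stimulus are a share near that of all genes (24.7% and 24.5%). Of the subunits raised in experiment 1, 17 of 29 and 17 of 26 had a negative ratio in experiment 2. Among all genes called in experiment 1, raised and lowered together, 89.4% and 93.7% kept their sign. Below every pair of experiment 1 lay 38 and 37 of the 41, beside 46% and 46.2% of all genes. Most of these differences were smaller than the size set for a call, which 6 and 5 subunits passed toward lower values, and 2 of them under each stimulus were of the opposite class. The sum of the list was 5990 and 6670 CPM with vehicle and 4790 and 4970 CPM with DSF in experiment 2, and in experiment 1 it was 6120 to 6540 CPM with vehicle and 6540 to 8000 CPM with DSF.

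Individual subunits fell into several classes. Psma5, a subunit of the outer ring and named here after its values were seen, had an opposite change under both stimuli. It was at 105 CPM with LPS and 69.1 CPM with DSF, and at 128 and 71.3 CPM with IL-4+anti-CD40. In experiment 1 it rose under LPS from 107, 108, 116 and 110 CPM to 133, 153, 161 and 175 CPM, and the differences were -1.11 ± 0.13 and -1.14 ± 0.14 (adjusted p = 6.39e-08 and 0.000381, edgeR). Psma4 was at 171 and 59.4 CPM and at 207 and 66.7 CPM, and was not called in experiment 1 (-0.04 ± 0.04 and -0.15 ± 0.06), so it was lower in experiment 2 only. Psmb5, which carries the chymotrypsin-like activity, was at 93.3 and 27.1 CPM and at 98.5 and 46 CPM. Its difference was called under LPS (-1.59 ± 0.14) and was just short of the size under IL-4+anti-CD40 (-0.98 ± 0.16, or -1.10 and called without vehicle replicates 1 and 2). Psme2, of the interferon-inducible activator cap, was a larger fall under both stimuli, at 233 and 46 CPM and at 266 and 40.1 CPM.

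NRF2 targets were higher with DSF by less in experiment 2 than in experiment 1, and some were not higher at all. Their medians were 0.64 and 0.66 over 24 genes in experiment 2, against 1.73 and 1.52 in experiment 1. DSF raised 20 of the 24 in experiment 1 under each stimulus, and the difference was called lower for 12 under LPS and 7 under IL-4+anti-CD40, or 15 without vehicle replicates 3 and 4, when the experiment 1 median was 2.09. Without vehicle replicates 1 and 2 it was called lower for 7 and higher for 3 under IL-4+anti-CD40. The experiment 1 median was then 1.15 and the median difference -0.42. Nqo1 (chr8:107388225-107403206), a quinone reductase, was at 16.1 CPM with LPS and 11.8 CPM with DSF in experiment 2, and at 20.6 and 16.9 CPM with IL-4+anti-CD40. In experiment 1 under LPS it was at 4.19, 2.99, 3.92 and 3.96 CPM with vehicle and at 27.6, 32.4, 26.4 and 28.6 CPM with DSF. Vehicle levels were thus higher and DSF levels lower in experiment 2, and the difference was -3.40 ± 0.22 under LPS and -1.85 ± 0.62 under IL-4+anti-CD40 (adjusted p = 1.07e-12 and 0.0497, edgeR). Under IL-4+anti-CD40 the Nqo1 difference was -2.67 ± 0.22 without vehicle replicates 3 and 4 and -1.33 ± 0.20 without replicates 1 and 2.

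Other genes of thiol and NADPH metabolism were also below their experiment 1 change. Gsr, glutathione reductase, was at 25.2 and 24.2 CPM under LPS and at 23.6 and 19.8 CPM under IL-4+anti-CD40, where it rose to 86.2 to 94.7 CPM and to 80.7 to 86.6 CPM in experiment 1. Prdx1, a peroxiredoxin, was at 382 and 516 CPM and at 400 and 438 CPM, with differences of -1.07 ± 0.11 and -1.04 ± 0.21. G6pdx, the entry enzyme of the pentose phosphate pathway, was at 74.7 and 20.8 CPM and at 75 and 23 CPM, and it was not called in experiment 1 (adjusted p = 0.995 and 0.125, edgeR). G6pdx was therefore lower in experiment 2 only, with differences of -1.74 ± 0.13 and -1.73 ± 0.15. It overlaps Ikbkg on the other strand. Pgd, the next oxidative enzyme of that pathway and named here after its values were seen, rose in experiment 1 (0.45 ± 0.04 and 0.40 ± 0.06) and was at 189 and 101 CPM and at 215 and 103 CPM in experiment 2.

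Other NRF2 targets stayed far above the vehicle level. Hmox1 was at 52.5 and 1850 CPM under LPS and at 55.2 and 1560 CPM under IL-4+anti-CD40 in experiment 2. In experiment 1 under LPS it rose from 13.2, 13.2, 15.4 and 13.9 CPM to 1490, 1600, 1670 and 1780 CPM, so DSF levels were alike and the smaller rise (difference -1.75 ± 0.12) came with a higher vehicle level. Under IL-4+anti-CD40 its difference was 0.98 ± 1.57 and not called (adjusted p = 0.682, edgeR), and it was -1.88 ± 0.28 without vehicle replicates 3 and 4 and 1.88 ± 0.36 without replicates 1 and 2, called both times (adjusted p = 0.000234 and 0.00113, edgeR). Sqstm1, the autophagy receptor p62, was at 830 and 6980 CPM and at 607 and 5010 CPM, with differences of -0.21 ± 0.11 and 0.79 ± 0.59 that were not called. Its IL-4+anti-CD40 difference was 0.05 ± 0.14 without vehicle replicates 3 and 4, and 1.27 ± 0.21 and called without replicates 1 and 2 (adjusted p = 0.000455, edgeR). Nfe2l2, which encodes NRF2, was at 51.9 and 294 CPM and at 56 and 259 CPM.

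Windows of 3 genes of these lists are shown because they hold the core of the antioxidant response element, TGACNNNGC, on either strand (capitals), in genes of smaller rise, of experiment 2 only and of the proteasome.
Prdx1, chr4:116685456-116685485: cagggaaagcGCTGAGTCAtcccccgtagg
G6pdx, chrX:74428918-74428947: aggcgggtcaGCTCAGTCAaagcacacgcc
Psmb5, chr14:54618023-54618052: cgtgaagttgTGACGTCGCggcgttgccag
The motif was in 9 of 22 NRF2 target windows (40.9%), in 6 of 35 proteasome windows (17.1%) and in 3781 of 27025 windows of all genes (14%), so the proteasome share was near that of all genes.

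**Figure D5:**
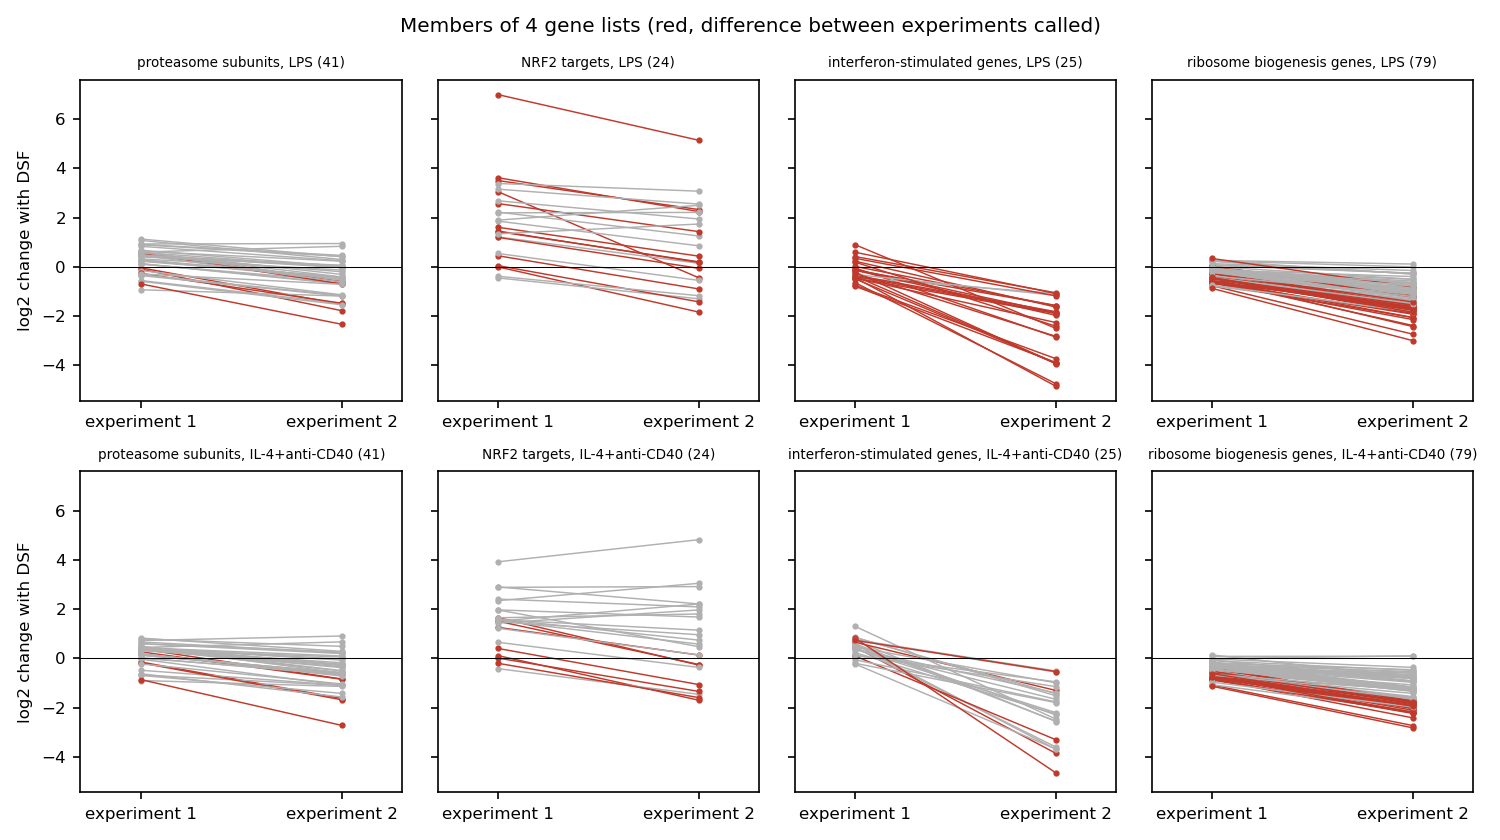
Log2 change with DSF of each member of 4 gene lists in experiment 1 (left point) and experiment 2 (right point), with red lines where the difference between experiments was called. Of the proteasome members raised in experiment 1, 17 under each stimulus lie below 0 in experiment 2, NRF2 targets stay mostly above 0 at lower values, and interferon-stimulated and ribosome biogenesis genes drop.

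Interferon-stimulated genes had the lowest median of the 29 lists in experiment 2 under both stimuli. All 25 members were below the vehicle level with DSF under both stimuli, 25 and 20 of them 2-fold or more, and the medians were -1.97 and -1.80. In experiment 1 the medians were -0.27 under LPS, with 16 lowered and 6 raised, and 0.46 under IL-4+anti-CD40, with 3 raised and none lowered. The difference was called lower for 23 of 25 under LPS. Under IL-4+anti-CD40 it was called for 5 of 25, for all 25 without vehicle replicates 3 and 4, when 20 were raised in experiment 1, and for 11 without replicates 1 and 2, when 1 was raised and the median was -0.17. The median difference was -3.48 and -1.59 in those fits. Both fits kept all 4 DSF libraries of experiment 1, in which this list split by replicate number too. Its sum was 249, 299, 515 and 790 CPM in vehicle replicates 1 to 4, and 336, 423, 761 and 908 CPM in DSF replicates 1 to 4. The counts raised or called in those fits thus depend on which vehicle libraries stand against the DSF libraries.

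The vehicle levels of these genes differed between the experiments before DSF entered. Ifit3 (chr19:34583531-34588731), an antiviral gene, was at 402 CPM in unstimulated cells of experiment 2, 208 CPM with LPS and 90.5 CPM with IL-4+anti-CD40, and at 7.64 and 6.9 CPM with DSF. In experiment 1 with LPS it was at 1260, 1380, 1280 and 1170 CPM with vehicle and at 738, 757, 743 and 782 CPM with DSF. The list summed to 3180 CPM in the unstimulated library of experiment 2 and to 2690 and 1920 CPM after stimulation, and it summed to 390 to 829 CPM unstimulated and 11000 to 12200 CPM with LPS in experiment 1. LPS libraries were thus far above unstimulated ones in experiment 1 and not in experiment 2. With DSF the list summed to 594 and 545 CPM in experiment 2, and all 25 genes lay below the 5 other libraries, the ibrutinib ones included.

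The size of the difference per gene followed from both levels. The gap between experiments over the 25 genes was -2.05 (median, log2) between the LPS vehicle libraries and -3.73 between the LPS DSF libraries. Under IL-4+anti-CD40 it was 2.50 between vehicle and -0.11 between DSF libraries, so there the DSF levels were close and the vehicle level of experiment 2 was the higher. For Ifit3 the log2 change under LPS was -4.75 against -0.64 ± 0.05, a difference of -4.02 ± 0.14 (adjusted p = 5.06e-18, edgeR), while its IL-4+anti-CD40 difference of -4.20 ± 1.56 was not called (adjusted p = 0.0702, edgeR). That difference was called without vehicle replicates 3 and 4 (-5.92 ± 1.15, adjusted p = 0.00163, edgeR) and without replicates 1 and 2 (-3.44 ± 1.11, adjusted p = 0.0281, edgeR). Ifit3b is a close copy of Ifit3, and reads may be split between them. Cxcl10, a chemokine gene that also stands in the NF-κB list and overlaps Art3, was at 203 and 13.4 CPM and at 154 and 6.03 CPM, with differences of -3.44 and -5.42 (adjusted p = 5.06e-18 and 0.0218, edgeR). Under IL-4+anti-CD40 the Cxcl10 difference was -7.13 ± 1.03 without vehicle replicates 3 and 4 (opposite class). Without replicates 1 and 2 it was -4.67 ± 0.998 (experiment 2 only). Rsad2, an antiviral enzyme whose values were seen before it was named here, rose in experiment 1 under LPS (0.90 ± 0.04) and was at 117 and 20.5 CPM in experiment 2, a difference of -3.30 ± 0.11.

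The promoters of these genes are shown because they share the interferon-stimulated response element, searched as GAAA, any 2 bases and GAAA on either strand (capitals).
Ifit1, chr19:34640794-34640823: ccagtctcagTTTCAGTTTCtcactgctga
Ifit3, chr19:34583397-34583426: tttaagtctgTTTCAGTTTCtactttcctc
Isg15, chr4:156200865-156200894: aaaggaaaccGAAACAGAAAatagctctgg
Rsad2, chr12:26456553-26456582: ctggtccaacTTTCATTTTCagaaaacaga
Cxcl10, chr5:92349083-92349112: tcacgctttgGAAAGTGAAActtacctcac
The motif was in 13 of 20 windows of the list (65%) and in 1079 of 27025 windows of all genes (3.99%).

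Of the 12 genes with an opposite change that was lower in experiment 2 under both stimuli, 6 were named. Mmp13, a collagenase, was at 7.15 CPM with LPS and 1.39 CPM with DSF, and at 15.2 and 2.75 CPM with IL-4+anti-CD40. In experiment 1 it rose from 1.7, 2.58, 3.16 and 2.1 CPM to 2.91, 4.8, 4.88 and 4.61 CPM under LPS and from 7.61 to 11.5 CPM to 14.6 to 29.7 CPM under IL-4+anti-CD40. The differences were -3.21 ± 0.45 and -3.60 ± 0.60. Mmp13 passed the minimum mean only through the vehicle libraries, so its values are a description and are given with no p. Ifi204, an interferon-inducible DNA sensor, was at 8.89 and 2.45 CPM and at 7.48 and 4.49 CPM, where its experiment 1 LPS libraries stood at 74.5 to 79.3 CPM with vehicle and 111 to 119 CPM with DSF. Slc15a3, a lysosomal peptide transporter, was at 189 and 90.2 CPM and at 336 and 94.4 CPM, with differences of -1.69 ± 0.09 and -1.96 ± 0.14, and it was of the experiment 2 only class under IL-4+anti-CD40 without vehicle replicates 1 and 2. The transcription regulators Spic, Cited2 and Id2 had differences of -1.77, -1.39 and -1.62 under LPS.

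An opposite change that was higher in experiment 2 was seen under both stimuli in 3 genes. Hdac10, a deacetylase, was at 22.3 and 40.1 CPM under LPS and at 17.7 and 37.5 CPM under IL-4+anti-CD40, and it fell in experiment 1 by 0.24 and 0.27 on the log2 scale. Cog5, of the Golgi complex, was at 23.6 and 38.4 CPM and at 23.6 and 38.7 CPM, with differences of 1.24 ± 0.15 and 1.24 ± 0.18 (adjusted p = 9.29e-08 and 0.000734, edgeR). Zbtb26, a zinc finger gene, was at 3.58 and 6.53 CPM and at 4.99 and 9.11 CPM. Without vehicle replicates 3 and 4, Hdac10 was not called in experiment 1 under IL-4+anti-CD40 and was higher in experiment 2 only. Cog5 overlaps Gpr22 and Hbp1 on the other strand, and Zbtb26 overlaps Zbtb6.

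Of the 19 genes lower in experiment 2 only under both stimuli, 6 were named, G6pdx among them. Dtx3l, a ubiquitin ligase that works with the product of its overlapping neighbour Parp9, was at 173 and 21.9 CPM under LPS and at 130 and 21.6 CPM under IL-4+anti-CD40. In experiment 1 under LPS it was at 508, 489, 471 and 488 CPM with vehicle and at 439, 460, 424 and 438 CPM with DSF, and was not called (-0.04 ± 0.04). The differences were -2.84 ± 0.11 and -2.44 ± 0.48 (adjusted p = 1.9e-17 and 0.00413, edgeR). Tapbp, which loads peptide onto MHC class I, was at 419 and 137 CPM and at 389 and 148 CPM, with experiment 1 changes of 0.08 ± 0.04 and 0.09 ± 0.11. Tor3a, an interferon-responsive ATPase, was at 199 and 43.1 CPM and at 206 and 46.9 CPM. The other genes named for this class, Tmem184b and D16Ertd472e, had log2 ratios of -1.51 and -1.44 and of -1.74 and -1.46. Without vehicle replicates 3 and 4, Tapbp and Tmem184b had an opposite change under IL-4+anti-CD40.

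Only 3 genes were higher in experiment 2 only under both stimuli. Lamtor3, of the Ragulator complex at the lysosome, was at 23.1 and 40.8 CPM and at 18.9 and 41.9 CPM, with differences of 1.06 ± 0.15 and 1.14 ± 0.17. Itga2b, the integrin chain of platelets, was at 19.4 and 41.7 CPM and at 14 and 36.3 CPM, while every stimulated library of experiment 1 was at 1.98 to 3.92 CPM. Tmem63a was at 13 and 25.2 CPM and at 14.6 and 24 CPM. Without vehicle replicates 1 and 2, the IL-4+anti-CD40 differences of Itga2b (0.88) and Tmem63a (0.90) were under the size set for a call.

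Of the 6 smaller rises under both stimuli, 3 were outside the NRF2 list. Aldoa, aldolase A, was at 736 and 549 CPM under LPS and at 645 and 519 CPM under IL-4+anti-CD40, and rose in experiment 1 by 1.07 ± 0.04 and 0.95 ± 0.10. Esd, esterase D, was at 106 and 102 CPM and at 98.5 and 94.3 CPM, with differences of -1.30 ± 0.11 and -1.14 ± 0.22. Chpf2, of chondroitin synthesis, was at 53 and 43.1 CPM and at 58.8 and 49.8 CPM. Without vehicle replicates 1 and 2, the IL-4+anti-CD40 differences of Esd (-0.96), Chpf2 (-0.89) and Prdx1 (-0.93) were under the size set for a call. No gene had a smaller fall under both stimuli, so the 3 widest under LPS and both under IL-4+anti-CD40 were named. Dpp4, the peptidase CD26, was at 53.4 and 41.9 CPM under LPS, against 149 to 177 CPM and 40.2 to 43.1 CPM in experiment 1, so its DSF levels were alike and its vehicle levels were not. Gngt2 and Zcchc18 had log2 ratios of 0.40 and 0.10 under LPS, against -0.96 ± 0.10 and -1.37 ± 0.13. Under IL-4+anti-CD40, Setbp1 and Engase had ratios of -0.42 and -1.34, against -1.45 ± 0.13 and -2.29 ± 0.14. Without vehicle replicates 1 and 2 their differences of 0.95 and 0.87 were not called.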

How the data were processed

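RNA was measured in 27 libraries of mouse splenic B cells, 20 in experiment 1 and 7 in experiment 2. The authors trimmed reads with Fastp, aligned them to mm10 with HISAT2 2.0.5 and deposited whole-number read counts per gene from featureCounts 1.5.0-p3. They also deposited FPKM values, used here as an alternative only, at a pseudocount of 0.1. The annotation release and strand setting are not given in the sources used here, so overlapping genes are uncertain.

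Counts were scaled by TMM in edgeR 4.0.16 under R 4.3.3. The mean count over the 4 libraries of experiment 2 had to reach 100. Experiment 2 has 1 library per group and no p-value; experiment 1 and the difference between experiments were tested with edgeR's quasi-likelihood test and Benjamini-Hochberg adjustment over all genes fitted. A log2 ratio with a prior count understates changes of low genes. A class needed an adjusted p under 0.05 and a difference of at least 1; an opposite change also needed a ratio of at least 0.5 in experiment 2. The scripts were tested on simulated data.

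Named genes were, for each class, up to 6 protein-coding genes so classed under both stimuli with the largest smaller difference (where fewer than 3, the 3 largest under each stimulus), and for each list up to 4 members by difference and 2 by ratio, of which some are printed. Members and lists were chosen with earlier results of these data known. Alternatives were other scalings, filters, minimum differences, DESeq2 1.42.0, a replicate block and leaving out replicates. Of 9 motif spellings tried, 3 are given. The start site within the RefSeq promoter window lay within 50 bases of an annotated transcript start on the same strand in 79.4% of windows. Replicates differed by more than sampling noise in all 30 pairs (chi-square per gene 2.86 to 90.7). Totals of 16049295 to 24619776 counts limit the precision of genes below about 1 CPM, and counting intervals cover counting error only. Figures were drawn with matplotlib 3.10.9. Some genes that the rule names are not reported here.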

Additional observations from a re-analysis of the deposited data

Results flagged for a closer look

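The effect of DSF differed between the experiments in 1141 genes under LPS and in 1191 genes under IL-4+anti-CD40 by the edgeR interaction test, as described above. Variation between whole experiments is not part of that test, and batch and experiment cannot be told apart.

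Of 164 groups of 4 experiment 1 libraries checked over 41 named genes, 10 held a library far from the other 3, and chance alone flags about 1 group in 20 by this measure. With LPS, Bcl2a1b was at 53.4 CPM in replicate 2 and at 84.2 to 89.4 CPM in the others. In the same replicate Cited2 was at 277 CPM against 272 CPM in each of the others, and Tor3a at 712 CPM against 668 to 671 CPM. Esd was at 116 CPM in LPS replicate 3 and at 99.3 to 101 CPM in the others. With LPS and DSF, Mmp13 was at 2.91 CPM in replicate 1 against 4.61 to 4.88 CPM, Ifi204 at 111 CPM in replicate 2 against 118 to 119 CPM, and Lamtor3 at 24.6 CPM in replicate 3 against 23.1 to 23.2 CPM. With IL-4+anti-CD40, Slfn2 was at 422 CPM in replicate 4 against 362 to 371 CPM. In replicate 2 of that group Engase was at 11.7 CPM against 8.62 to 9.13 CPM, and Tmem63a at 14.7 CPM against 11.6 to 12 CPM.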

How the results depend on the processing

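A mean of at least 10 counts gave, under LPS, 502 larger rises, 84 smaller, 160 opposite and 353 experiment 2 only, with 2799 genes 2-fold or more higher in experiment 2, and, under IL-4+anti-CD40, 22 smaller, 82 opposite and 371 experiment 2 only, with 2988 higher. A mean of at least 50 gave 199 and 231 experiment 2 only. With no minimum difference the larger rises, larger falls, smaller, opposite and experiment 2 only genes were 1234, 2053, 705, 190 and 710 under LPS and 897, 1671, 175, 73 and 614 under IL-4+anti-CD40, and with a minimum of 0.58 they were 746, 1469, 289, 184 and 417, and 736, 1453, 106, 73 and 429. In an alternative chosen after the data were seen, leaving out vehicle replicates 3 and 4 of IL-4+anti-CD40 gave 51 smaller and 101 opposite genes and turned the Hmox1 difference to -1.88, and leaving out replicates 1 and 2 gave 580 larger rises, 7 smaller and 307 experiment 2 only. These 2 pairs of libraries carry those changes, with all DSF libraries kept, and the cause was not tested. Leaving out 1 library at a time moved only the smaller class under IL-4+anti-CD40 past 1.5 times, to 8 without DSF replicate 3 and 25 without vehicle replicate 4. Library totals gave 230 larger rises and 822 larger falls under LPS. Same-numbered replicates correlated at -0.0702 to 0.187 under LPS and at -0.0566 to 0.374 under IL-4+anti-CD40. Under IL-4+anti-CD40, replicates 1 and 4 correlated most with their own number (0.374 and 0.351), and replicates 2 and 3 with another number (0.312 and 0.233). Whether the numbers pair the libraries is therefore not settled by these values. With the replicate block the opposite genes under IL-4+anti-CD40 were 72 in place of 45, and under LPS the classes held 302, 574, 50, 99 and 113 genes. No alternative gives experiment 2 a replicate.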
